A study of Mus musculus with 4 samples.

Results

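The SoxF genes Sox17, Sox7 and Sox18 were followed through the H3K27me3 peaks of mouse erythro-myeloid progenitors (EMPs), the transient blood progenitors of the yolk sac. They are 3 of the 21911 protein-coding genes of the GENCODE annotation that were examined. Peaks were assigned to them by position, as those that lay in the gene or within 20 kb of it on the mouse build mm10, and the rows of the authors' annotated tables that carried their symbols were read beside these. By that rule 15 of the 10223 peaks from 500 EMPs and 18 of the 15282 peaks from 15000 EMPs belonged to the SoxF genes, of which the tables named 15 and 15 by SoxF symbols. The EMPs came from C57BL/6 yolk sacs at E10.5, and their genotype label joins Ezh2fl/fl, a Tie2-Cre notation and the words wild type. They were read here as wild type, as the study did. Tie2-Cre acts in the endothelium, from which EMPs arise. The study asked which genes carry the mark placed by Ezh2 in these cells, and profiled it by CUT&RUN, in which an antibody directs a nuclease to cut out the DNA around its target. An H3K27me3 library and an IgG library were made at each of the 2 cell numbers, so that every group held 1 library, and the IgG libraries were not used here.

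SoxF proteins are transcription factors that bind DNA through a high mobility group box. All of them act in the endothelium, where they contribute to arterial and lymphatic identity, and Sox17 and Sox7 also mark hemogenic endothelium, the layer that releases blood progenitors. Sox17 is in addition a regulator of definitive endoderm, Sox7 is expressed in the extraembryonic endoderm, and Sox18 acts early in the lymphatic lineage. H3K27me3 is the trimethylated histone H3 lysine laid down by the Polycomb enzyme Ezh2. It lies over genes that a cell keeps silent, often around gene starts that are rich in CpG, the dinucleotide at which mammalian DNA is methylated.

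The peak lists and annotated tables used here gave the position of each peak and no height, read count or score, and the depth of the libraries could not be read from them. Signal tracks were not used here. A peak was therefore present or absent. With 1 library per cell number there was no replicate and no test, and every value below describes these libraries. The libraries differed in PCR cycles (17 for 500 EMPs and 16 for 15000 EMPs), read length (76 and 59 bp), instrument and the authors' peak threshold (p of 0.01 and 0.05), and per the study's reporting summary the 500-EMP library was sequenced less deeply and aligned at a lower rate. None of these can be told apart from cell number. Peaks covered 5.95 Mb of the genome with 500 EMPs and 24.0 Mb with 15000 EMPs. A mark carried by a share of the cells and a weaker mark on all of them also cannot be told apart in such pooled cells.

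The sequences under the peaks differed in CpG content, and a CpG-richer and a CpG-poorer stretch are shown for each gene. For each gene the first is the 200 bp with most CpG inside its peaks, shared by both libraries where both had peaks, away from untranslated exons and from the bases next to the gene start. The other is a whole distal peak from 500 EMPs that a 15000-EMP peak also met or, for Sox18, the middle of its widest peak. Each is read from the RefSeq copy of GRCm38.p6 (mm10), 5′ to 3′ on the strand of the gene, with every CpG in capitals.
Sox17, intron, chr1:4494197-4494396, minus strand: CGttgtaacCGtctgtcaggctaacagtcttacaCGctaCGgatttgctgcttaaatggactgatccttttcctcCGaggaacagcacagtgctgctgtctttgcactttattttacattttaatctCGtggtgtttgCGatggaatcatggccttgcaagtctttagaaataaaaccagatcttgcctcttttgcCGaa
Sox17, upstream peak, chr1:4505229-4505365, minus strand: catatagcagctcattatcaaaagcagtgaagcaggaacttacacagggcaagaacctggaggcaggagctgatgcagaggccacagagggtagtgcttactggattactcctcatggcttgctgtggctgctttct
Sox7, intron, chr14:63944117-63944316, plus strand: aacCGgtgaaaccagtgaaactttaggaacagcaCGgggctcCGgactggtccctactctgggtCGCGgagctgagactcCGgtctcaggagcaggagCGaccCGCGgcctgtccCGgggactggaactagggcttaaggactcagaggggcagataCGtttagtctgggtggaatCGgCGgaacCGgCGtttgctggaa
Sox7, downstream peak, chr14:63964005-63964212, plus strand: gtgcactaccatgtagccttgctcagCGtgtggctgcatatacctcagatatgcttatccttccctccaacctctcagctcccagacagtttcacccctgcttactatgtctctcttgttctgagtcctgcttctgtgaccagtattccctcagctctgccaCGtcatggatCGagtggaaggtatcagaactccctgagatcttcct
Sox18, coding part of the first exon, chr2:181671201-181671400, minus strand: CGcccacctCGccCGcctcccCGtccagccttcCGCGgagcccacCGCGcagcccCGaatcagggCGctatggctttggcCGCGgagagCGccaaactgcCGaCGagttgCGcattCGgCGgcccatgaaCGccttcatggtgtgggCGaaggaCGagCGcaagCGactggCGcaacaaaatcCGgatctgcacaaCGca
Sox18, upstream peak, chr2:181672523-181672722, minus strand: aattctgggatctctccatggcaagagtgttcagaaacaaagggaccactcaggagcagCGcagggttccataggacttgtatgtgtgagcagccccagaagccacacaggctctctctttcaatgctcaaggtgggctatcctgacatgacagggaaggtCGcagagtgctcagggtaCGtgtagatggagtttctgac

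The intronic stretch of Sox17 held 8 CpG in 200 bp, and its distal peak held 0 CpG in 137 bp. The intronic stretch of Sox7 held 15 CpG in 200 bp, against 3 CpG in the 208 bp of its downstream peak. The coding stretch of Sox18 was the densest, with 26 CpG in 200 bp, against 3 CpG in the 200 bp of its upstream peak. Of these stretches the distal peak of Sox17 alone was free of CpG.

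H3K27me3 peaks surrounded the start of Sox17 and Sox7 in both libraries, and that of Sox18 with 15000 EMPs alone. Sox17 had 8 peaks with 500 EMPs and 5 with 15000 EMPs, Sox7 had 7 and 10, and Sox18 had 0 and 3. Counted within 3 kb of the gene, Sox17 had 6 and 1, and Sox7 had 3 and 2, which turned the order of the libraries at Sox7. More peaks did not mean more covered bases. At Sox17 the 8 peaks from 500 EMPs covered 5661 bp of the gene and its 20-kb flanks, and the 5 peaks from 15000 EMPs covered 16608 bp. The covered length was 3896 and 15311 bp at Sox7, and 0 and 2790 bp at Sox18. The 15311 bp at Sox7 include 3 peaks that the authors' tables paired with the next gene downstream, 4930578I06Rik. In all 3 genes the 15000-EMP library thus covered more.

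**Figure D1:**
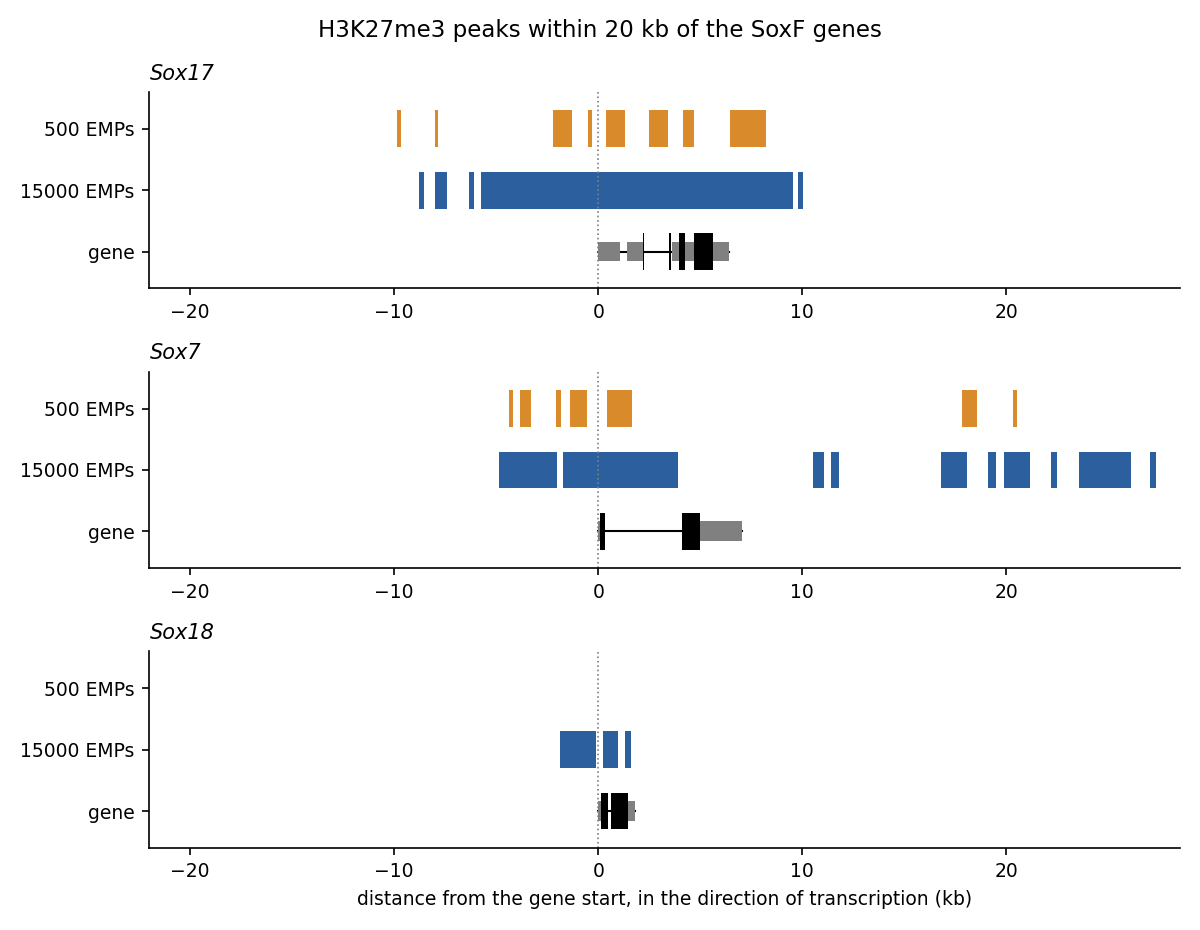
H3K27me3 peaks in and within 20 kb of Sox17, Sox7 and Sox18 in the 500-EMP library (orange) and the 15000-EMP library (blue), drawn to scale as distance from the gene start in kb, with transcription to the right. In the gene track black boxes are coding exons and grey boxes other exon sequence. Sox17 lies whole inside 1 peak with 15000 EMPs and has 8 separate peaks with 500 EMPs, Sox7 has peaks on both sides of its start in both libraries, and Sox18 has peaks with 15000 EMPs alone.

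Sox17 (ENSMUSG00000025902) lies on the minus strand at chr1:4490931-4497354 and spans 6424 bp. With 15000 EMPs a single peak of 15288 bp, at chr1:4487831-4503118, covered the whole of it. That peak began 5764 bp before the gene start and ended 3100 bp past the gene's 3′ end, and it ranked 52 by width among the 15282 peaks of its list. A gene that lies whole inside 1 peak was rare: 141 protein-coding genes (0.644%) did so with 15000 EMPs, of which 11 were at least as long as Sox17, and 3 genes (0.0137%) with 500 EMPs. All 1369 coding bases of Sox17 were covered with 15000 EMPs. With 500 EMPs 94 of them (6.87%) were. Sox17 has 8 annotated transcripts, and the window of 3 kb around the start farthest from the gene start, 3750 bp inside the gene, was covered over 2336 bp with 500 EMPs and 6001 bp with 15000 EMPs.

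With 500 EMPs separate, narrower peaks lay over the same stretch. The wide peak held 6 of the 8 peaks from 500 EMPs, which filled 5342 bp (34.9%) of it. Before the gene start these were a peak of 946 bp at chr1:4498622-4499567 and a peak of 204 bp at chr1:4497654-4497857. Past the start came a peak of 951 bp at chr1:4496048-4496998, which ran from untranslated exon (708 bp) into intron (243 bp), and the intronic peak of 939 bp at chr1:4493946-4494884 that holds the sequence with 8 CpG above. A peak of 525 bp at chr1:4492657-4493181 touched the coding sequence. The widest of these peaks, 1777 bp at chr1:4489142-4490918, began 12 bp past the 3′ end of the gene. The uncovered stretches between these peaks measured 655 to 1738 bp.

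The remaining peaks of Sox17 were narrow. The CpG-free sequence of 137 bp shown above, which had the smallest width in the 500-EMP list, began 7874 bp before the gene and shared 104 bp with a 15000-EMP peak of 576 bp. A peak of 182 bp at chr1:4507016-4507197 met no 15000-EMP peak. The other 3 peaks from 15000 EMPs, of 218 to 271 bp, met no 500-EMP peak, and 1 of them, of 255 bp, lay downstream, 3373 bp past the 3′ end. No further peak came near: the next one in the direction of higher coordinates was 519 kb from the gene with 15000 EMPs and 522 kb with 500 EMPs, and the next one toward lower coordinates was 818 kb away with 15000 EMPs. The H3K27me3 at Sox17 was therefore an isolated cluster on this stretch of chromosome 1.

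Sox7 (ENSMUSG00000063060) lies on the plus strand at chr14:63943673-63950732 and spans 7060 bp. With 15000 EMPs a peak of 5634 bp at chr14:63941924-63947557 crossed the gene start, from 1749 bp before it to 3884 bp past it. It covered the first exon with its 238 coding bases and 3564 bp of the intron, and it stopped before the second exon. Of the 1140 coding bases of Sox7, 20.9% were covered with 15000 EMPs and 0% with 500 EMPs. In contrast with Sox17, the 3′ part of the gene was free of peaks in both libraries. A peak of 2815 bp at chr14:63938818-63941632 lay upstream, 291 bp from the peak over the start.

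The 500-EMP peaks of Sox7 followed the same outline. Of the 7 peaks, 4 lay before the gene start, the closest of them 856 bp wide at chr14:63942264-63943119. The fifth, 1209 bp at chr14:63944117-63945325, lay whole in the intron and begins with the stretch of 15 CpG shown above. All 7 shared bases with a 15000-EMP peak, from 45 bp of a 236-bp peak to the whole of 5 peaks. The 5634-bp peak over the start held 2 of them, which filled 2065 bp (36.7%) of it.

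Downstream of Sox7 a further group of peaks lay apart from the gene. With 15000 EMPs it held 8 peaks, of 305 to 2595 bp, and with 500 EMPs 2 peaks, of 719 and 208 bp, which lay 10763 and 13272 bp past the 3′ end. The authors' tables paired 5 of these 8 peaks with Sox7, and paired the last 3, of 313, 2595 and 305 bp, with 4930578I06Rik, the next gene downstream. At the 20-kb limit the last peak counted here began 19962 bp past the gene, and a peak of 189 bp just outside began 20598 bp past it. With a limit of 50 kb the number of peaks for Sox7 was 14 with 15000 EMPs and remained 7 with 500 EMPs.

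Sox18 (ENSMUSG00000046470) lies on the minus strand at chr2:181669836-181671640 and, with 1805 bp, is the shortest of the SoxF genes. No peak from 500 EMPs lay in it or within 50 kb, and the nearest were 209 and 259 kb from the gene. With 15000 EMPs it had 3 peaks. The widest, 1749 bp at chr2:181671749-181673497, ended 108 bp short of the gene start. The next, 708 bp at chr2:181670694-181671401, covered 523 coding bases and the intron, and includes the stretch of 26 CpG shown above. The last, 333 bp at chr2:181670015-181670347, ran from coding sequence (142 bp) into the untranslated end (191 bp). In all, 58.8% of the coding bases of Sox18 were covered with 15000 EMPs, more than at Sox7 and less than at Sox17. The next peak toward lower coordinates was 207 kb away with 15000 EMPs, and none followed toward higher ones.

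The bases within 3 kb of the gene start, a window of 6001 bp, allowed the SoxF genes to be set beside all protein-coding genes. With 500 EMPs 9.94% of protein-coding genes had a peak in this window, as did Sox17 and Sox7 but not Sox18. With 15000 EMPs 17% had one, as did all 3 SoxF genes. Sox17 was covered over 2632 bp (43.9%) with 500 EMPs and over all 6001 bp with 15000 EMPs. Only 139 genes were covered in full with 15000 EMPs. Sox7 was covered over 2301 bp (38.3%) and 5710 bp (95.2%), and Sox18 over 0 and 2790 bp (46.5%). The order of covered length was thus Sox17, Sox7 and Sox18 in both libraries, and the step between Sox17 and Sox7 was 331 bp with 500 EMPs and 291 bp with 15000 EMPs, for which no error could be given.

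Sox17 and Sox7 stood high among all genes in both libraries, and Sox18 near the middle of the genes that had a peak. With 500 EMPs Sox17 ranked 260 and Sox7 ranked 335 of 21911, and with 15000 EMPs Sox7 ranked 228 and Sox18 ranked 1836. Over the genes with a peak in the window, the median covered length was 789 bp with 500 EMPs (2177 genes) and 2744.5 bp with 15000 EMPs (3726 genes). Sox18 was 1 of 1571 genes (7.17% of all) with a peak there in the 15000-EMP library alone. Of these, 85.9% had less covered length than Sox18. Sox17 and Sox7 belonged to the 2155 genes (9.84% of all) with a peak in both libraries. Their median covered length with 15000 EMPs was 4006 bp. There were 22 genes (0.1% of all) with a peak in the 500-EMP library alone.

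**Figure D2:**
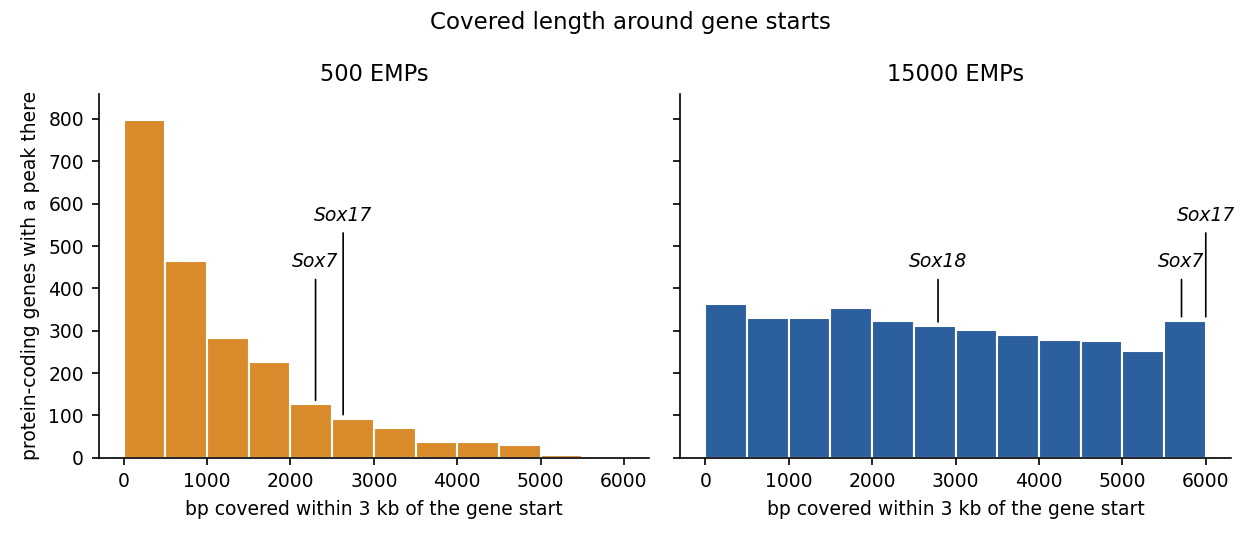
Number of protein-coding genes by the bp covered by H3K27me3 peaks within 3 kb of the gene start (bins of 500 bp, genes without a peak left out), for 500 EMPs (2177 genes) and 15000 EMPs (3726 genes). Lines mark the SoxF genes: Sox17 at 2632 and 6001 bp, Sox7 at 2301 and 5710 bp, and Sox18 at 2790 bp with 15000 EMPs, whereas its 0 bp with 500 EMPs is not drawn.

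Covered bases were next compared between the libraries. Of the bases covered with 500 EMPs in the gene and its 20-kb flanks, 96.2% at Sox17 (5446 bp) and 83.3% at Sox7 (3246 bp) were also covered with 15000 EMPs. Over the whole genome this share was 93%. In reverse, 500 EMPs covered 32.8% of the bases that 15000 EMPs covered at Sox17, 21.2% at Sox7 and 0% at Sox18, against 23.1% over the genome. Within 3 kb of the gene start the share was 43.9% at Sox17 and 37% at Sox7.

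At the gene start itself the peaks left a gap. With 500 EMPs the start base lay in a peak in 0 of the 3 SoxF genes and in 1.41% of all protein-coding genes. With 15000 EMPs it did so in Sox17 and Sox7, but not in Sox18, and in 8.64% of all genes. Among the genes with a peak in the window alone, the start base was uncovered in 85.9% with 500 EMPs and 49.2% with 15000 EMPs. The uncovered stretch around the Sox17 start with 500 EMPs was 655 bp long, from the peak that ended 300 bp before the start to the peak that began 356 bp past it. At Sox7 it was 997 bp, between peaks 554 bp before and 444 bp past the start. At Sox18 the 15000-EMP peaks left 347 bp, from 109 bp before to 239 bp past the start. Among the same genes such a gap, with peaks on both sides of an uncovered start, was found in 36.6% with 500 EMPs and 19.6% with 15000 EMPs.

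The gaps at the SoxF starts were richer in CpG than the peaks that bordered them. At Sox17 the gap held 6.56 CpG per 100 bp and the 2 peaks beside it held 2.77. At Sox7 the values were 8.22 and 3.49, and at Sox18, with 15000 EMPs, 10.1 and 3.95. The same was found at most genes of this kind. Among 797 genes with peaks on both sides of an uncovered start in the 500-EMP library the gap was denser than its peaks in 727 (91.2%), with medians of 6.73 and 2.26 CpG per 100 bp. Among 729 such genes with 15000 EMPs it was denser in 671 (92%), with medians of 8.53 and 2.37. The SoxF genes did as most genes did, and at Sox17 and Sox7 the 15000-EMP peaks ran across the very bases left out with 500 EMPs.

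**Figure D3:**
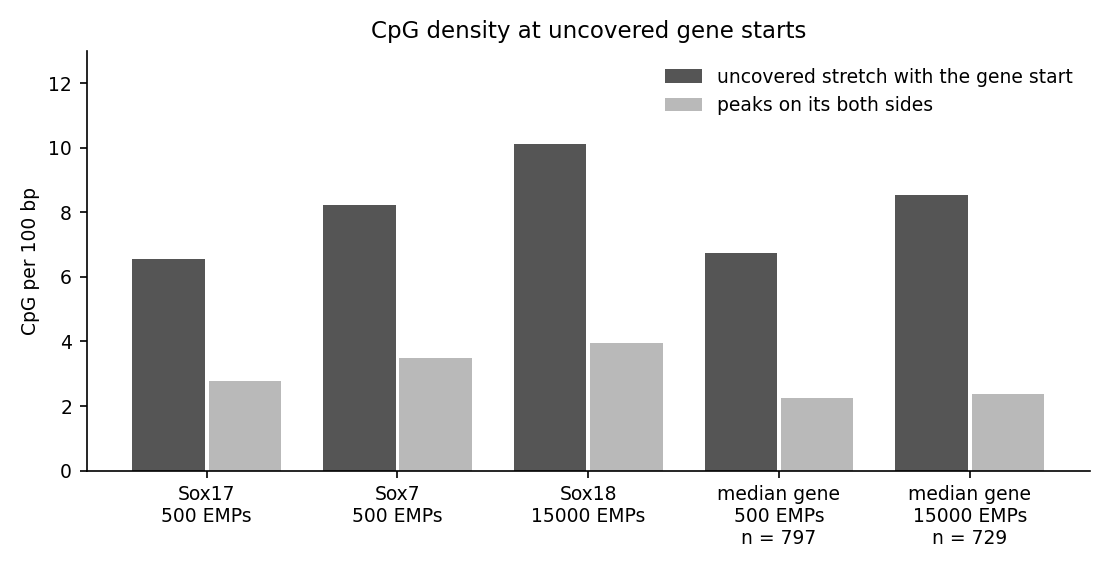
CpG per 100 bp in the uncovered stretch that holds the gene start (dark bars) and in the peaks on both of its sides (light bars), at Sox17 and Sox7 with 500 EMPs and Sox18 with 15000 EMPs, and as the median over all protein-coding genes with such a gap (797 genes with 500 EMPs, 729 with 15000 EMPs). In each pair the gap is denser, from 6.56 against 2.77 at Sox17 to 10.1 against 3.95 at Sox18.

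Over the gene and its flanks, bases covered with 15000 EMPs were denser in CpG than those covered in neither library at each SoxF gene. At Sox17 the bases covered in both libraries held 1.6 CpG per 100 bp and those covered with 15000 EMPs alone held 2.28, against 0.689 in the bases of neither. At Sox7 the respective values were 2.53, 1.79 and 0.887. At Sox18 the bases covered with 15000 EMPs held 3.87 against 1.13 elsewhere. The few bases covered with 500 EMPs alone held 0 CpG in 215 bp at Sox17, below the uncovered bases, and 1.08 per 100 bp over 650 bp at Sox7. Between the genes the order of bases covered in both and in 15000 EMPs alone was turned, with the bases of 15000 EMPs alone the denser at Sox17 and the sparser at Sox7. Single peaks spread widely: the 708-bp peak of Sox18, with 10.9 CpG per 100 bp, was denser than 99.7% of its list, and the 856-bp peak before the Sox7 start, with 4.32, was denser than 89.2% of the 500-EMP list, whereas both distal 500-EMP peaks of Sox17 held none. The median peak held 1.49 with 500 EMPs and 1.62 with 15000 EMPs.

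The peaks at the SoxF genes did not extend over the starts of the next protein-coding genes within 100 kb. At Sox17 the gene was Rp1 and at Sox7 these were Pinx1, 4930578I06Rik and Rp1l1, and all had 0 bp covered within 3 kb of the start in both libraries. Of these, 4930578I06Rik had 2338 bp and Rp1l1 had 276 bp covered inside the gene with 15000 EMPs. Around Sox18 no other gene within the same distance, among them Prpf6, Tcea2, Rgs19, Oprl1 and Myt1, had a covered base in its window or body. The exception was Gm37587, a non-coding transcript on the strand opposite to Sox17 that overlaps its start. It had 3024 bp of its own window covered with 500 EMPs and 6001 bp with 15000 EMPs, and peaks there cannot be assigned to one of these overlapping genes.

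By the Jaccard index, the covered bases that a pair of genes share over those that either has, no SoxF gene was among the 3 genes most like another SoxF gene. The window ran from 10 kb before to 10 kb past the gene start in both libraries, and 4513 genes were compared with each member. Sox17 was most like Sim2 (0.674), Nkx2-2 (0.672) and Dusp15 (0.669). Sox7 was most like Neurog3 (0.711), Lrp2 (0.71) and Pdgfra (0.701). Sox18 was most like Shc2 (0.825), Degs2 (0.78) and Tdgf1 (0.775), all of them covered with 15000 EMPs alone in this window. Sox17 and Sox7 reached 0.405 with each other, by which Sox7 ranked 437 of 4513 genes in likeness to Sox17, and Sox17 ranked 693 in likeness to Sox7. Sox7 and Sox18 reached 0.233, and Sox17 and Sox18 0.126. In likeness to Sox18, Sox7 ranked 1839 and Sox17 ranked 2711. The index rests on 2 libraries and is given as a description.

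Within the SOX family, which shares the high mobility group box, SoxF genes were spread over the range. A peak within 3 kb of the start was found at 11 of 20 family members with 500 EMPs and at 15 of 20 with 15000 EMPs. Without the SoxF genes these were 9 and 12 of 17, above the background of 9.94% and 17% of all genes. The family was listed with earlier results of these data known, so this difference is a description and not independent evidence. Sox17 had the greatest covered length of the family with 15000 EMPs and, with 500 EMPs, was second to Sox1 (3335 bp), a gene of the neural lineage. Sox7, with 2301 and 5710 bp, was close to the neural genes Sox21 (2307 and 5579 bp) and Sox14 (2220 and 5716 bp). Sox9, a regulator of cartilage and gonad, had 302 bp with 500 EMPs and 5976 bp with 15000 EMPs, the widest step of the family. Sox18 was grouped with Sox5 (1803 bp), Sox8 (1381 bp) and Sox30 (1202 bp), the other members covered with 15000 EMPs alone, and had the greatest length among these. Of all protein-coding genes, 7.17% had a peak there with 15000 EMPs alone. Sry, Sox4, Sox12, Sox13 and Sox15 had no peak within 3 kb of the start in either library.

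**Figure D4:**
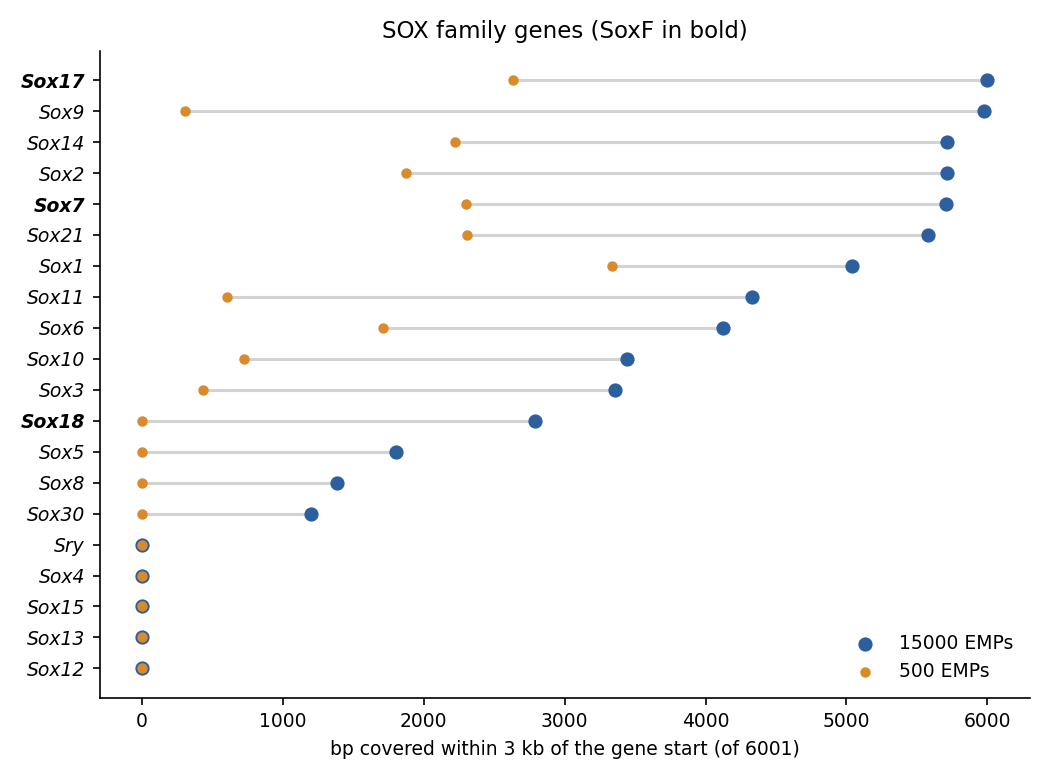
Bp covered by H3K27me3 peaks within 3 kb of the gene start, of 6001 bp, for the 20 SOX family genes ordered by the 15000-EMP value (blue), with the 500-EMP value (orange) joined to it by a line and SoxF genes in bold. Sox17 is at the top with 6001 bp, Sox7 is among the genes above 5500 bp, Sox18 lies lower, at 2790 bp, with no coverage at 500 EMPs, and 5 genes lie at 0 bp in both.

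Genes that act before or beside the SoxF genes in the endothelium were next examined. This list and those below were also chosen with earlier results known, so their shares only describe the listed genes. Of 15 regulators and partners, 4 (26.7%) had a peak within 3 kb of the start with 500 EMPs and 10 (66.7%) with 15000 EMPs, against 9.94% and 17% of all genes. With a limit of 1 kb the count with 15000 EMPs was 6, against 15.2% of all genes. Nr2f2, the venous regulator COUP-TFII and a partner of Sox18 in lymphatic specification, was covered over 4691 and 6001 bp, more than any SoxF gene with 500 EMPs. The forkhead factors of vessel development Foxc1 (2218 and 5173 bp) and Foxc2 (2980 and 4334 bp) were, like Sox7, covered in both libraries. Erg, an ETS factor of the endothelium, had 434 and 4041 bp. Gata2 had 2334 bp with 15000 EMPs alone, and Rbpj, the Notch effector, 947 bp. Etv2, Fli1, Ets1 and Kdr, which encodes a VEGF receptor, had 274 to 454 bp with 15000 EMPs and 0 with 500 EMPs. Tal1, Ets2, Mef2c, Vegfa and Ctnnb1 had none in either library.

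Among vessel genes linked to SoxF factors, such a peak was found at 7 of 15 (46.7%) with 500 EMPs and 8 (53.3%) with 15000 EMPs, against 9.94% and 17% of all genes. With a limit of 1 kb the count with 500 EMPs was 4, against 7.4% of all genes. Flt1, another VEGF receptor, was the most covered in both libraries, with 1734 and 5427 bp. Hey1 (600 and 3823 bp), a Notch target, Acvrl1 (1124 and 3555 bp), a BMP receptor, and the tight junction gene Cldn5 (1188 and 3328 bp) followed in the order of the 15000-EMP values, which the 500-EMP values did not keep. Prox1 (1194 and 3144 bp), the lymphatic regulator downstream of Sox18, had more bases covered than Sox18 in both libraries. Dll4 (219 and 2174 bp) and Efnb2 (663 and 1521 bp), both arterial genes, had more than Sox18 with 500 EMPs and less with 15000 EMPs, and Nrp1 had 1751 bp with 15000 EMPs alone. Cdh5, Notch1, Robo4, Vcam1, Gja4, Gja5 and Tek had no peak there in either library.

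Endoderm genes, set beside Sox17 and Sox7 for their other role, had the highest share of the lists with a peak. Since the lists were chosen with earlier results of these data known, this order is not independent evidence. It was 10 of 13 (76.9%) in each library, against 9.94% and 17% of all genes, and the median covered length over the list was 1205 bp with 500 EMPs and 4597 bp with 15000 EMPs. Eomes (3902 and 6001 bp) and Foxa2 (3558 and 6001 bp), which act with Sox17 in the endoderm, matched the full coverage of Sox17 with 15000 EMPs. Gata4 (3478 and 4597 bp) and Foxa1 (1969 and 5453 bp) lay lower. Cxcr4, a surface marker of definitive endoderm, had 137 bp with 500 EMPs and 5053 bp with 15000 EMPs. Hnf4a, Cer1 and Dab2 had none in either library.

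Genes of blood and endothelium were last set beside the SoxF genes. The files hold no expression, so that the label of EMPs could be compared only with the peaks. Of 11 genes of the EMP gate and of blood, among them Kit, Itga2b, Fcgr3, Runx1, Spi1 and Gata1, 1 (9.09%) had a peak within 3 kb of the start in each library, against a background of 9.94% with 500 EMPs and 17% with 15000 EMPs. It was Gfi1, a repressor in early blood formation, with 770 and 4801 bp, and with a limit of 1 kb the count with 500 EMPs was 0, against 7.4% of all genes. Of 6 endothelial markers 0 had a peak with 500 EMPs and 1 (16.7%, near the background of 17%) with 15000 EMPs, Kdr with the 274 bp given above, and Cdh5, Pecam1, Tek, Esam and Emcn had none. Sox17 and Sox7, genes of the same endothelium, had 2632 and 2301 bp with 500 EMPs and 6001 and 5710 bp with 15000 EMPs. Sox18 had 0 and 2790 bp. Sox17 and Sox7 were not alone in this. Flt1, Acvrl1, Cldn5 and Erg, listed above, also had peaks in both libraries, whereas Robo4, Gja4 and Gja5 had none. Whether a share of other cells in the sort bears on these peaks was not tested.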

How the data were processed

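H3K27me3 CUT&RUN peaks of E10.5 yolk sac EMPs were used from 1 library of 500 and 1 of 15000 cells. Per the submitters' processing notes, Bowtie2 (v2.2.1), SAMtools (v1.9), MACS2 (v2.1.2) and deepTools (v3.5.1) were used on mm10 (GRCm38). The authors called broad peaks for each library with IgG as control, at p of 0.01 for 500 EMPs and 0.05 for 15000 EMPs. Their list of commands names the files of the other cell number beside each threshold, and the lists were taken as labelled. The deposited peak lists hold chromosome, start and end, and the deposited annotated tables add a gene, where the peak lies relative to it, and how many bp apart they are. These deposited lists and tables hold no score, p-value or count, so precision could not be estimated, and signal tracks were not used here. Starts and ends in the annotated tables lay 1 bp above those in the lists for all 10223 and 15282 peaks, and the lists were used.

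Positions are 1-based. Gene models were those of GENCODE vM21, with the gene start taken as the 5′ end of the gene record and 1 record kept per symbol. Covered bases were counted in Python (v3.11.15) with NumPy (v2.4.6), peaks met when they shared at least 1 bp, and the interval routines were tested on simulated data. CpG was counted on the assembled chromosomes, which hold 10216 and 15269 of the peaks. Figures were drawn with Matplotlib (v3.10.9). Alternatives were other distances (1, 3 and 50 kb), peaks joined within 1 or 3 kb, lists without their narrowest peaks, another transcript start for Sox17 and the distances of the authors' tables. The named genes were the members, the gene lists, the next genes and the 3 genes with the highest Jaccard index per member. The members and lists were chosen with earlier results of these data known.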

Additional observations from a re-analysis of the deposited data

How the results depend on the processing

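Of 74 alternative values computed for 31 results, 60 stayed within 1.5 times the reported value and 14 moved further. Peaks per gene depended most on the rule. With peaks joined within 3 kb, Sox17 had 2 peaks with 500 EMPs and 1 with 15000 EMPs, Sox7 had 2 and 3, and Sox18 had 1 with 15000 EMPs. Within 3 kb of the gene in place of 20 kb, Sox17 had 1 peak with 15000 EMPs, and Sox7 had 3 with 500 EMPs and 2 with 15000 EMPs. With peaks joined within 1 kb, 500 EMPs covered 4051 bp around the Sox17 start and 3738 bp around the Sox7 start, since joining fills the gap at the start and another one upstream. The share of 15000-EMP bases also covered with 500 EMPs at Sox7 was 37% within 3 kb of the start. With a limit of 1 kb, 4 vessel genes and 0 EMP and blood genes had a peak with 500 EMPs, and 6 regulators and partners with 15000 EMPs, against 7.4% and 15.2% of all genes. Sox18 had 0 peaks and 0 covered bases with 500 EMPs under every alternative run for it. No paired analysis was possible because each group held 1 library, and no replicate could be left out. The peak lists and tables used here hold no depth, and the 500-EMP library was the shallower per the study's reporting summary, so that an absent peak says only that none was called, and the cause of any difference between the libraries was not tested.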
